A study of Mus musculus with 20 samples.

Results

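Lung tissue that lacks the glucocorticoid receptor in its mesenchyme was examined for genes whose level at the end of gestation lay below both stages of normal development measured here. The genes were chosen by group means of log2 values: the lower of the E16.5 and E18.5 control means had to exceed the E18.5 GR ablation mean by at least 0.5, a difference called the shortfall below. Each gene was read from 1 probe set, the brightest of those naming that gene alone, and genes reaching a log2 value over 4 on 5 or more of the 20 arrays were tested. Of 8068 genes tested, 35 met the limit, and 8 of them were left out by name (Nr3c1, Hif3a, Cldn1, Dgat2, G0s2, Per1, Hbb-y and Hba-x). The remaining 27 genes are the members. Because these means chose them, the shortfall is given as a description without a test.

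The glucocorticoid receptor (GR, gene Nr3c1) is a nuclear receptor that binds cortisol or corticosterone and then switches genes on or off. In the fetal lung, glucocorticoids late in gestation accompany thinning of the septa, remodelling of the mesenchyme and the start of surfactant production. Mesenchymal cells of the fetal lung make matrix, growth signals and receptors, and some of these decline toward birth while others increase.

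The study used left lung lobes of C57Bl6 embryos, 5 animals per group and 1 animal per Affymetrix array. The groups were E16.5 GR ablation (genotype GRCol1-Cre), E16.5 control (GR flox), E18.5 GR ablation (GRCol1-Cre) and E18.5 control (GR flox), and the GR ablation animals are called mutants below. The Cre recombinase came from a bacterial artificial chromosome that holds the locus of a type I collagen gene (alpha-2), so that cells not expressing it, such as epithelium, endothelium and blood cells, keep GR in the lobe, and all controls carry the floxed allele with GR present in mesenchymal cells. Values are log2 GCRMA values, and a log2 value below 4 is called dim. In whole lobes, fewer cells of a type and less RNA per cell cannot be told apart.

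Nr3c1 ranged from 6.31 to 7.501 in E16.5 mutants, against 8.58 to 9.15 in E16.5 controls, and from 7.56 to 8.05 in E18.5 mutants, against 9.02 to 9.57 in E18.5 controls, so no array went against its label. All 6 mesenchymal markers were measured, and of 6 epithelial markers 1, Nkx2-1, was dim on all arrays. At E18.5 some markers of lung cell types were lower in every mutant than in any control. Mesenchymal Tcf21 was 12.93 to 13.36 in E18.5 mutants, against 13.82 to 13.96 in E18.5 controls and 12.49 to 13.03 in E16.5 controls. Pdgfra was 10.41 to 10.93 in E18.5 mutants, against 11.13 to 11.38 in E18.5 controls and 10.437 to 10.935 in E16.5 controls. The other mesenchymal markers overlapped between the E18.5 groups. Mean Col1a1 was 11.07 in E18.5 mutants, against 11.17 in E18.5 controls, and mean Col1a2 was 13.12 against 13.14. Mean Col3a1 was 14.32 against 14.31 and mean Foxf1 6.632 against 6.705. The summed linear level of 5 endothelial markers was 4037 to 5204 in E18.5 mutants. It was 6426 to 7737 in E18.5 controls and 2718 to 3694 in E16.5 controls. For 3 measured lymphatic endothelial markers the sum was 1154 to 1583 in E18.5 mutants. It was 1978 to 3082 in E18.5 controls and 1058 to 1456 in E16.5 controls. The part of these cell types in the members' values was not tested.

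One array stood apart. E18.5 control replicate 3 had a stage position of 0.71, where 0 is the mean of the E16.5 controls and 1 that of the E18.5 controls over the tested genes that are no members, while the other E18.5 controls were between 1.02 and 1.09. It was the highest of its group for 15 members and the lowest for 7. Its mean log2 value over 5 skeletal muscle markers was 6.98, E18.5 control replicate 4 reached 5.21, and the other E18.5 controls were between 3.41 and 3.62. Over 5 smooth muscle markers the mean was 8.69 to 9.13 in E18.5 mutants, against 9.71 and 9.85 in E18.5 control replicates 3 and 4 and 8.45 to 8.73 in the other E18.5 controls. The part of muscle tissue in the members' values on these arrays was not tested. Without replicate 3, 22 of the 27 members still met the limit, and Ncam1, Kcna5, Nrk, Kcne4 and Igf2r did not.

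Over the 27 members, the shortfall ranged from 0.50 to 1.57 on the log2 scale with a median of 0.66, so that between 33.7% and 70.6% of the lower control level was left. Only 5 members had a shortfall of 1 or more: Fkbp5, Gap43, Smoc2, Lpar1 and Sfrp1. For 13 members all 5 E18.5 mutants lay below all 10 controls, an arrangement found for 0.322% of all genes tested, and nothing is read from this because the same arrays chose the members. A mean at or above the E16.5 control mean was the more common position among genes lower in the mutants: of 752 tested genes whose E18.5 GR ablation mean was at least 0.5 below the E18.5 control mean, 666 had a mean at or above that of the E16.5 controls. The mirrored limit, an E18.5 GR ablation mean at least 0.5 above both control means, was met by 56 genes.

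**Figure D1:**
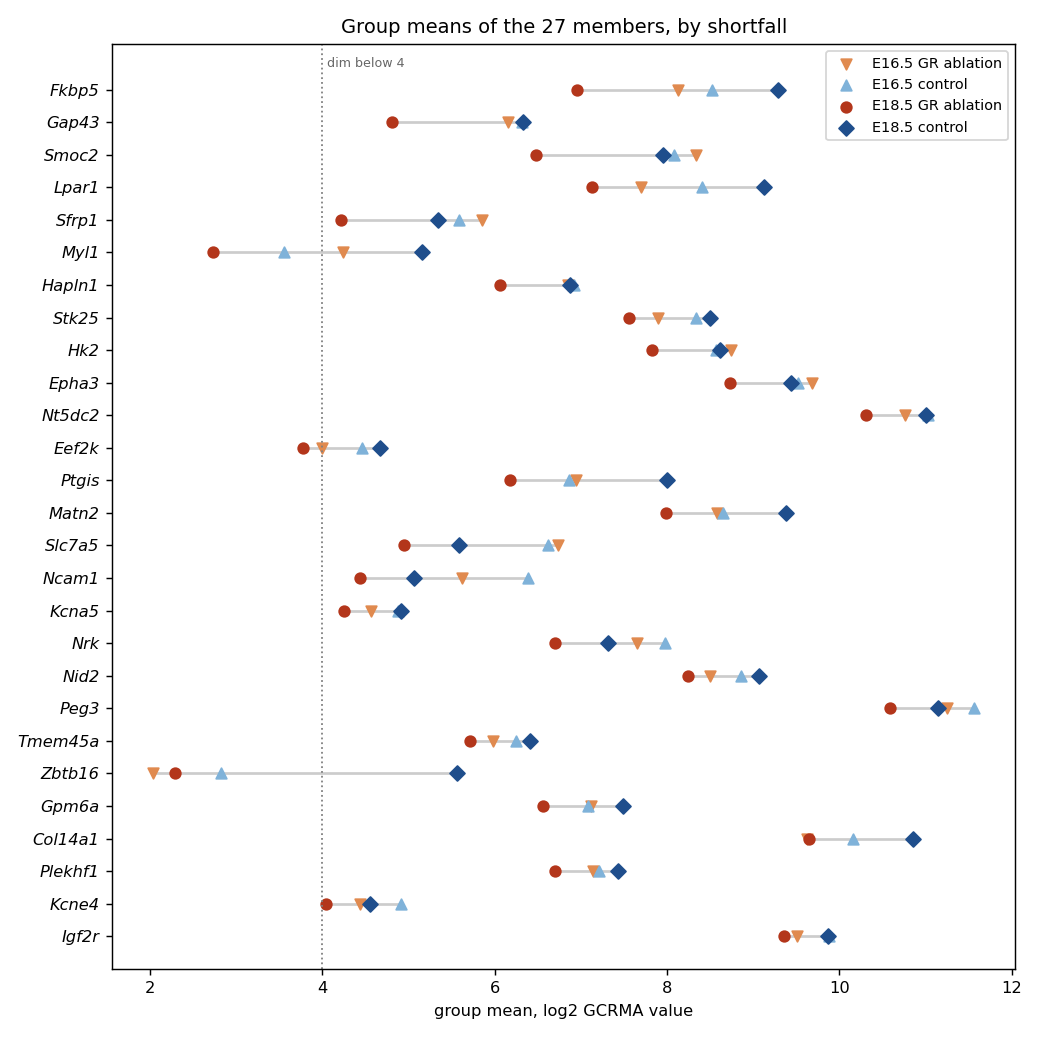
Group means of the 27 members as log2 GCRMA values (x axis), one row per gene, ordered by shortfall from the largest at the top, with a dotted line at the dim limit of 4. The E18.5 GR ablation mean (red circle) is the lowest of the 4 in 25 rows; Zbtb16 and Col14a1 have a lower E16.5 GR ablation mean.

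In controls the members did not share one developmental course. For 7 members (Fkbp5, Lpar1, Myl1, Ptgis, Matn2, Zbtb16 and Col14a1) the E18.5 control mean was at least 0.5 above the E16.5 control mean, for 3 (Slc7a5, Ncam1 and Nrk) it was at least 0.5 below it, and for 17 the control means were within 0.5 of each other. In mutants 25 members had a lower mean at E18.5 than at E16.5, 16 of them by 0.5 or more. For 12 members all 5 E18.5 mutants lay below all 5 E16.5 mutants, which held for 20.3% of all genes tested. The rule asked for a low E18.5 GR ablation mean, which favours lower mutant values at E18.5 than at E16.5. These mutant counts are therefore a description only, and for the counts of lower means no share over all genes was computed.

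RefSeq promoters (build GRCm38.p6, 250 bases before to 50 after each annotated start) were found for 17 members, 23 promoters in all. The full GR element, searched on both strands as AGAACA followed by any 3 bases and TGTTCT, was in 0 of 23 member promoters and in 0.0117% of promoters of tested genes. A looser form, GNACA followed by any 3 bases and TGTNC, which also matches every full element, was in 1 of 23, against 0.304% of promoters of tested genes. The hexamer AGAACA alone, which is part of the full element, was in 1 of 23 member promoters (4.35%), against 12.3%. TATAAA, the letters of the core promoter box, was searched on both strands over the whole window. It was in 8.70% of member promoters, against 7.25%. The member matches lay on the opposite strand, 211 bases before the start in a Gpm6a promoter not shown and 95 bases before it in Myl1. They are therefore not counted as core promoter boxes. Over all promoters in the table these shares were 0.00913% for the full element, 0.475% for the looser form, 19.0% for the hexamer and 13.6% for TATAAA. Member promoters had a median GC content of 62.0%, against 60.0% for tested genes. The 250 bases before the start are shown for the member with the largest shortfall and for the only members with a match to the looser form or the hexamer, with matches in capitals and each read 5′ to 3′ on the gene's strand. Fkbp5 is on the minus strand at chr17:28486150-28486399, Kcna5 on the minus strand at chr6:126535556-126535805 and Gpm6a on the plus strand at chr8:54779184-54779433.
Fkbp5: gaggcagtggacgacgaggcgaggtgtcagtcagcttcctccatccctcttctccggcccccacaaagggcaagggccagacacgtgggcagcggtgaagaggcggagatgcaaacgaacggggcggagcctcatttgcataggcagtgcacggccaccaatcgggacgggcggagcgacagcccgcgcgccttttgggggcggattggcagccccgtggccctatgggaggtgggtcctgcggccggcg
Kcna5: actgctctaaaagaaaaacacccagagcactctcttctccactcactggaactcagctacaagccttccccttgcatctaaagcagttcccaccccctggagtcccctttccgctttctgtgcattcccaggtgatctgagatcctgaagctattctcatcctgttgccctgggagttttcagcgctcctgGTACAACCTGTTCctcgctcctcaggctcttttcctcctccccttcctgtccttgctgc
Gpm6a: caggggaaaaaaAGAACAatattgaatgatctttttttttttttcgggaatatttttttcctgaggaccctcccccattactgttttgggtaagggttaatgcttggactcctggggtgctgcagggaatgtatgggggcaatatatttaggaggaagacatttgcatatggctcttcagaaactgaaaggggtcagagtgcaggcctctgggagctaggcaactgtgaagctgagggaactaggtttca
The Kcna5 match starts 59 bases before the annotated start and the Gpm6a hexamer 238 bases before it, and the Fkbp5 window holds none of the motifs searched. A match here is a description of the letters, and a window without one says only that these letters are not in it.

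Among genes of the GR pathway, Fkbp5 and Zbtb16 were members. Fkbp5 encodes a co-chaperone of Hsp90 that lowers hormone binding by GR and is itself a widely used GR target gene (GRCm38.p6, chromosome 17, 28398753 to 28486149). It read 7.03, 6.56, 7.18, 7.08 and 6.90 in E18.5 mutants, against 9.52, 9.55, 8.46, 9.43 and 9.49 in E18.5 controls. At E16.5 it read 8.07, 8.27, 8.22, 8.30 and 7.76 in mutants, against 8.55, 8.41, 8.35, 8.50 and 8.80 in controls. All 5 E18.5 mutants were below every other array, and E18.5 control replicate 3 was the lowest of its group by a wide gap. The E16.5 groups did not overlap either, and the E16.5 control mean, the lower of both control means, was 1.57 above the E18.5 GR ablation mean. Zbtb16, a zinc finger transcription factor induced by glucocorticoids in many cell types, was dim in all 10 mutants. It ranged from 2.10 to 2.42 in E18.5 mutants, against 3.31 to 6.25 in E18.5 controls, and from 1.85 to 2.33 in E16.5 mutants, against 2.30 to 4.18 in E16.5 controls. Its shortfall of 0.53 rests on E16.5 control replicate 5, which at 4.18 was the only E16.5 control above 4: without that array the shortfall was 0.19. The list of glucocorticoid-induced genes had 29 other tested genes, of which limma called 19 lower and 1 higher at E18.5 and none at E16.5. Their median E18.5 difference was -0.66, against 0.03 over all genes tested, of which 15.9% were called lower and 18.6% higher. The largest called changes on that list were those of Lcn2, Pdk4 and Gpx3. Lcn2, a secreted iron-siderophore binding protein, had a log2 difference of -3.52. Its values were widely scattered in E18.5 mutants (5.98 ± 2.50, SD), against 9.50 ± 0.21 in E18.5 controls. Pdk4, a kinase that inhibits pyruvate dehydrogenase, differed by -3.17 and Gpx3, a secreted glutathione peroxidase, by -2.63. Their SDs in E18.5 mutants were 0.27 and 0.20.

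Receptors and secreted signals formed a further group. Lpar1 (chromosome 4, 58435252 to 58554027) encodes a G protein-coupled receptor for lysophosphatidic acid. Its values were 7.33, 7.30, 6.73, 7.20 and 7.11 in E18.5 mutants, against 9.01, 9.06, 9.02, 9.33 and 9.20 in E18.5 controls. At E16.5 the values were 7.75, 7.77, 7.58, 7.74 and 7.66 in mutants, against 8.50, 8.36, 8.10, 8.37 and 8.73 in controls. At both stages every mutant was below every control of its stage, and all E18.5 mutants were also below all E16.5 mutants. A second Lpar1 probe set had a shortfall of 1.41, against 1.28 in the one used. Ptgis encodes prostacyclin synthase, which makes the vasodilator prostacyclin. It read 6.35, 6.25, 6.34, 5.74 and 6.22 in E18.5 mutants, against 8.003, 7.99, 8.08, 7.79 and 8.16 in E18.5 controls. The E16.5 arrays read 7.17, 7.24, 6.88, 6.81 and 6.62 in mutants, against 7.14, 6.95, 6.82, 6.89 and 6.52 in controls. Controls of the later stage were all above controls of the earlier one, the E16.5 groups overlapped, and every E18.5 mutant was below all 15 other arrays. Ptgis is known from endothelium and smooth muscle. The summed endothelial markers given above were lower in E18.5 mutants than in E18.5 controls and higher than in E16.5 controls. Their part in the Ptgis values was not tested. Of 19 other tested genes on the list of vasoactive and cyclic nucleotide signalling, limma called 11 lower and 0 higher at E18.5, among them Adm, which encodes the vasodilator adrenomedullin.

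Sfrp1 encodes a secreted antagonist of Wnt ligands. Its values were 3.94, 3.93, 4.03, 4.01 and 5.20 in E18.5 mutants, against 5.11, 4.51, 6.80, 6.19 and 4.09 in E18.5 controls. At E16.5 it read 6.20, 6.23, 5.003, 6.57 and 5.26 in mutants, against 6.05, 5.16, 5.55, 6.17 and 4.998 in controls. Mutant replicate 5 overlapped the E18.5 controls, whose spread was wide, and 3 of the 5 E16.5 mutants were above all E16.5 controls. The shortfall was 1.12 with all arrays and 0.75 without E18.5 control replicate 3. It was 0.35 without E18.5 control replicates 3 and 4 together, an alternative chosen after the data were seen. Further Sfrp1 probe sets, dim on all or most arrays, had shortfalls of -0.02, 0.03 and 0.09. The 17 other tested genes of the Wnt list had 3 called lower and 5 called higher by limma at E18.5. Epha3, a receptor tyrosine kinase for ephrin-A ligands, read 9.06, 8.87, 8.53, 8.87 and 8.31 in E18.5 mutants, against 9.47, 9.54, 9.04, 9.59 and 9.54 in E18.5 controls. The E16.5 values of Epha3 were 9.63, 9.89, 9.72, 9.57 and 9.62 in mutants, against 9.46, 9.52, 9.72, 9.45 and 9.43 in controls. The E18.5 groups overlapped only through E18.5 control replicate 3 and mutant replicate 1. Igf2r, the imprinted receptor that binds Igf2 and carries it to lysosomes, is the member nearest the limit. It read 9.69, 9.26, 9.11, 9.55 and 9.21 in E18.5 mutants, against 9.77, 9.76, 10.06, 9.73 and 10.01 in E18.5 controls. At E16.5 its values were 9.69, 9.60, 9.52, 9.12 and 9.62 in mutants, against 10.04, 9.41, 9.74, 9.81 and 10.38 in controls. The E18.5 groups did not overlap, and the shortfall was 0.50 with all arrays and 0.45 without E18.5 control replicate 3. Igf2r met the limit in 13 of 20 settings that each left out 1 array. In 5 of these settings the array was an E16.5 mutant, which does not enter the shortfall and could not change membership.

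Matrix genes among the members were Smoc2, Hapln1, Matn2, Nid2 and Col14a1. Smoc2 encodes a secreted calcium-binding protein of the matrix. Its values were 6.88, 6.83, 5.58, 6.23 and 6.90 in E18.5 mutants, against 7.82, 7.63, 7.96, 8.53 and 7.83 in E18.5 controls. The E16.5 values were 8.98, 8.95, 7.82, 8.04 and 7.90 in mutants, against 8.78, 8.16, 8.20, 8.02 and 7.27 in controls. All E18.5 mutants were below all other arrays, while 2 E16.5 mutants were above all E16.5 controls. A second Smoc2 probe set had a shortfall of 1.04, against 1.47 in the one used. Hapln1 encodes a link protein that holds hyaluronan and proteoglycans together. It read 5.71, 5.90, 6.33, 6.17 and 6.22 in E18.5 mutants, against 7.07, 6.997, 6.47, 6.79 and 7.04 in E18.5 controls. At E16.5 the Hapln1 values were 6.45, 7.30, 6.85, 6.71 and 6.98 in mutants, against 6.37, 7.38, 7.17, 6.85 and 6.85 in controls. Only the E18.5 mutants stood apart, all below every other array, while both E16.5 groups and the E18.5 controls overlapped each other. Hapln1 is also expressed in cartilage. The summed linear level of the 5 cartilage markers was 101 to 393 in E18.5 mutants, against 27.8 to 117 in E18.5 controls. These ranges overlapped through E18.5 control replicate 3. In E16.5 controls the sum was 346 to 394. Acan, Matn1 and Col11a2 were dim on all arrays and Col2a1 on all E18.5 arrays. Col9a1 was 6.33 to 8.54 in E18.5 mutants, against 3.23 to 6.60 in E18.5 controls. Where Col9a1 was dim as well, the E18.5 sum holds dim values only. The part of cartilage in the Hapln1 values was not tested. Of 8 other tested cartilage genes, limma called 3 higher and 1 lower at E18.5. Col9a1, which is also in the marker sum, is among those called higher.

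Matn2, a matrilin that links matrix networks, read 7.71, 8.13, 7.78, 8.09 and 8.20 in E18.5 mutants, against 9.44, 9.30, 9.21, 9.63 and 9.34 in E18.5 controls. In E16.5 lobes Matn2 had 8.07, 8.68, 8.58, 8.86 and 8.68 in mutants, against 8.03, 8.79, 8.84, 8.78 and 8.79 in controls. The E18.5 groups were far apart, but E16.5 control replicate 1, at 8.03, lay below 3 of the E18.5 mutants. Nid2, a nidogen that connects laminin and type IV collagen in basement membranes, read 8.40, 8.27, 8.20, 8.22 and 8.16 in E18.5 mutants, against 8.89, 8.98, 9.62, 8.89 and 8.98 in E18.5 controls. At E16.5 Nid2 had 8.59, 8.64, 8.36, 8.40 and 8.50 in mutants, against 8.71, 8.46, 8.81, 9.15 and 9.18 in controls. Every E18.5 mutant was below every control of either stage, and E18.5 control replicate 3 was the highest of its group. Col14a1, a collagen that sits on the surface of collagen fibrils, ranged from 9.46 to 9.88 in E18.5 mutants, against 10.63 to 11.04 in E18.5 controls. At E16.5 it ranged from 9.29 to 9.72 in mutants, against 9.86 to 10.52 in controls, so the groups were apart at both stages and mutants of both stages overlapped. Of 27 other tested genes on the list of fibrillar collagen and interstitial matrix, limma called 10 lower and 4 higher at E18.5, led in size by Spon1 (log2 difference -3.53), Vcan (2.09) and Ecm1 (-1.90). Of 19 other tested basement membrane genes, 6 were called lower and 1 higher.

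Gap43, Ncam1 and Gpm6a encode proteins best known from neurons. Gap43 is a membrane protein of growing axons (chromosome 16, 42248552 to 42340651). Its values were 4.29, 5.17, 4.95, 4.83 and 4.78 in E18.5 mutants, against 5.96, 6.24, 7.15, 6.17 and 6.12 in E18.5 controls. At E16.5 they were 6.60, 5.98, 6.29, 5.98 and 5.95 in mutants, against 6.62, 5.86, 6.36, 6.53 and 6.20 in controls. All E18.5 mutants were below all 15 other arrays, whose 3 groups overlapped. The shortfall was 1.51 with all arrays and 1.32 without E18.5 control replicate 3. Among the 3 measured markers of neurons and Schwann cells, Stmn2, a tubulin-binding protein of neurons, was the only one above the dim limit: it ranged from 4.52 to 5.85 in E18.5 mutants, against 7.20 to 7.88 in E18.5 controls. Sox10 and Tubb3 were dim on all arrays. The summed linear level of all 3 markers was 33.9 to 69.2 in E18.5 mutants, against 159 to 248 in E18.5 controls, and 31.7 to 77.9 in E16.5 mutants, against 42.8 to 98.5 in E16.5 controls. The part of these cells in the Gap43 values was not tested.

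Ncam1, a cell adhesion molecule of neurons and of embryonic mesenchyme, read 5.32, 4.75, 4.08, 4.31 and 3.73 in E18.5 mutants, against 4.19, 3.9999, 7.58, 5.36 and 4.17 in E18.5 controls. Its E16.5 values were 5.85, 5.85, 5.55, 5.16 and 5.68 in mutants, against 6.95, 5.68, 6.42, 6.34 and 6.52 in controls. The E18.5 groups overlapped, and 4 of the 5 E18.5 mutants were above the lowest E18.5 control. Membership of Ncam1 rests on E18.5 control replicate 3 at 7.58: the shortfall was 0.62 with that array and -0.0081 without it. Gpm6a, a membrane glycoprotein of neurons that is also found in mesothelium, ranged from 6.35 to 6.77 in E18.5 mutants, against 7.23 to 8.09 in E18.5 controls. At E16.5 its range was 6.65 to 7.39 in mutants, against 6.86 to 7.38 in controls, and all 5 E18.5 mutants lay below all controls of both stages. The summed linear level of the 3 measured mesothelial markers was 865 to 1558 in E18.5 mutants, with Wt1 dim on all arrays. It was 2612 to 2993 in E18.5 controls and 387 to 602 in E16.5 controls. Of 5 other tested mesothelial genes, limma called 3 lower and 0 higher at E18.5. Among those called are Msln and Upk3b, which are also in the marker sum, so the count and the sum are not separate observations. The part of mesothelial cells in the Gpm6a values was not tested.

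Several members act in metabolism, translation or transport. Hk2, a hexokinase that phosphorylates glucose, read 8.04, 7.89, 8.01, 7.28 and 7.92 in E18.5 mutants, against 8.81, 8.69, 8.37, 8.51 and 8.68 in E18.5 controls. Hk2 at E16.5 read 8.49, 8.57, 9.11, 8.51 and 9.01 in mutants, against 8.58, 8.19, 8.37, 8.70 and 8.97 in controls. Every E18.5 mutant was below every other array, and mutant replicate 4 was the lowest of all. Of 15 other tested genes of glycogen and glucose metabolism, limma called 5 lower and 0 higher at E18.5. Slc7a5, the light chain of a transporter for large neutral amino acids, read 4.89, 4.13, 5.77, 4.88 and 5.10 in E18.5 mutants, against 5.73, 5.49, 5.87, 5.45 and 5.38 in E18.5 controls. At E16.5 Slc7a5 had 6.92, 7.12, 6.55, 6.87 and 6.19 in mutants, against 6.97, 6.43, 7.06, 6.64 and 5.99 in controls. It was lower at E18.5 than at E16.5 in both genotypes, and 1 E18.5 mutant overlapped the E18.5 controls. Eef2k, a kinase that slows translation elongation, read 4.11, 3.78, 3.63, 3.47 and 3.89 in E18.5 mutants, against 4.80, 4.16, 5.54, 4.16 and 4.65 in E18.5 controls. Eef2k at E16.5 read 4.12, 4.16, 4.15, 3.40 and 4.15 in mutants, against 4.18, 4.16, 4.43, 4.62 and 4.91 in controls. These levels were close to the dim limit on most arrays, and the E18.5 mutants overlapped the E16.5 mutants while lying below all controls.

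Both potassium channel members were low in level. Kcna5, a voltage-gated potassium channel of smooth and cardiac muscle, read 4.29, 4.80, 4.25, 3.42 and 4.51 in E18.5 mutants, against 4.60, 4.39, 6.82, 4.66 and 4.13 in E18.5 controls. At E16.5 it had 4.83, 4.44, 4.58, 4.71 and 4.28 in mutants, against 5.32, 5.004, 4.64, 4.77 and 4.63 in controls. Apart from E18.5 control replicate 3 at 6.82 the E18.5 groups overlapped, and the shortfall was 0.62 with that array and 0.19 without it. Kcne4, an accessory subunit of potassium channels, read 4.26, 3.94, 4.20, 3.90 and 3.90 in E18.5 mutants, against 4.53, 4.45, 4.89, 4.46 and 4.41 in E18.5 controls. Its E16.5 values were 4.42, 4.93, 4.45, 4.46 and 3.92 in mutants, against 5.01, 5.06, 4.84, 4.78 and 4.87 in controls. The E18.5 mutants were below all controls, and the shortfall was 0.51 with all arrays and 0.42 without E18.5 control replicate 3. Of 18 other tested genes of ion and water transport, limma called 10 lower and 0 higher at E18.5.

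Myl1, a myosin light chain of fast skeletal muscle, was dim on most arrays. It read 2.62, 2.71, 2.76, 2.76 and 2.82 in E18.5 mutants, against 2.88, 2.90, 10.28, 6.91 and 2.82 in E18.5 controls. At E16.5 the Myl1 values were 4.37, 2.85, 2.84, 8.02 and 3.12 in mutants, against 2.76, 2.97, 2.85, 6.34 and 2.85 in controls. High values were confined to E18.5 control replicates 3 and 4, E16.5 mutant replicates 1 and 4 and E16.5 control replicate 4, and all other arrays were at or below 3.12. The summed linear level of the 5 skeletal muscle markers was 48.8 to 71.6 in E18.5 mutants, against 1686 and 485 in E18.5 control replicates 3 and 4 and 86.3 to 142 in the other E18.5 controls. It was 363 in E16.5 mutant replicate 4 and 42.3 to 45.9 in the other E16.5 mutants, against 108 in E16.5 control replicate 4 and 43.8 to 54.8 in the other E16.5 controls. The Myl1 shortfall was 0.82 with all arrays, 0.12 without E16.5 control replicate 4 and 0.13 without E18.5 control replicates 3 and 4 together. The list of skeletal muscle genes had 1 other tested gene, Ckm, which encodes muscle creatine kinase and was called lower by limma at E18.5. Ckm is also among the 5 skeletal muscle markers summed above.

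Kinases, imprinted genes and genes with less settled roles made up the rest. Stk25, a kinase of the Ste20 family located at the Golgi, read 7.83, 7.23, 7.48, 7.60 and 7.65 in E18.5 mutants, against 8.76, 8.70, 8.62, 7.66 and 8.74 in E18.5 controls. Its E16.5 values were 7.35, 7.28, 8.23, 8.35 and 8.29 in mutants, against 8.45, 8.22, 8.23, 8.34 and 8.47 in controls. E18.5 control replicate 4 was the only control within the range of the E18.5 mutants, and the E16.5 mutants split into 2 low and 3 high values. Nrk, a kinase related to Nik on the X chromosome, read 6.87, 6.93, 6.43, 6.54 and 6.73 in E18.5 mutants, against 6.82, 6.75, 8.25, 7.62 and 7.15 in E18.5 controls. At E16.5 Nrk had 7.87, 7.77, 7.63, 7.37 and 7.61 in mutants, against 7.82, 7.68, 7.95, 8.19 and 8.23 in controls. It was lower at E18.5 than at E16.5 in both genotypes, 2 E18.5 mutants overlapped the E18.5 controls, and the shortfall was 0.62 with all arrays and 0.39 without E18.5 control replicate 3. Peg3, a paternally expressed zinc finger gene, read 10.65, 10.54, 10.24, 10.86 and 10.62 in E18.5 mutants, against 11.17, 11.19, 10.99, 11.16 and 11.22 in E18.5 controls. In E16.5 lobes Peg3 had 11.29, 11.45, 11.17, 11.05 and 11.28 in mutants, against 11.67, 11.17, 11.68, 11.50 and 11.80 in controls. All E18.5 mutants were below all other arrays, and further Peg3 probe sets had shortfalls of 0.61 and 0.93, against 0.56 in the one used.

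Nt5dc2, named for its nucleotidase-like domain, read 10.80, 10.30, 10.39, 9.98 and 10.09 in E18.5 mutants, against 10.97, 10.9997, 11.04, 11.02 and 11.001 in E18.5 controls. The E16.5 values of Nt5dc2 were 10.89, 10.83, 10.87, 10.65 and 10.55 in mutants, against 11.12, 11.02, 10.99, 10.97 and 11.04 in controls. Mutants and controls did not overlap at either stage. Plekhf1, which encodes an endosomal protein with a lipid-binding domain, read 7.17, 7.15, 6.24, 6.24 and 6.71 in E18.5 mutants, against 7.32, 7.66, 7.58, 7.32 and 7.27 in E18.5 controls. Its E16.5 values were 7.34, 7.26, 7.16, 6.77 and 7.18 in mutants, against 7.18, 7.49, 7.13, 7.27 and 7.005 in controls. The E18.5 groups did not overlap, but 2 E18.5 mutants were within the range of the E16.5 controls. Tmem45a, a transmembrane protein gene, ranged from 5.15 to 6.27 in E18.5 mutants, against 6.10 to 6.76 in E18.5 controls, and 1 mutant overlapped. At E16.5 it ranged from 5.76 to 6.28 in mutants, against 5.95 to 6.45 in controls, and these groups overlapped too. The genes just inside the limit were Plekhf1, Kcne4 and Igf2r with shortfalls of 0.51, 0.51 and 0.50, and those just outside were Mtrr, Abat and Agtr2 with 0.48, 0.48 and 0.47.

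**Figure D2:**
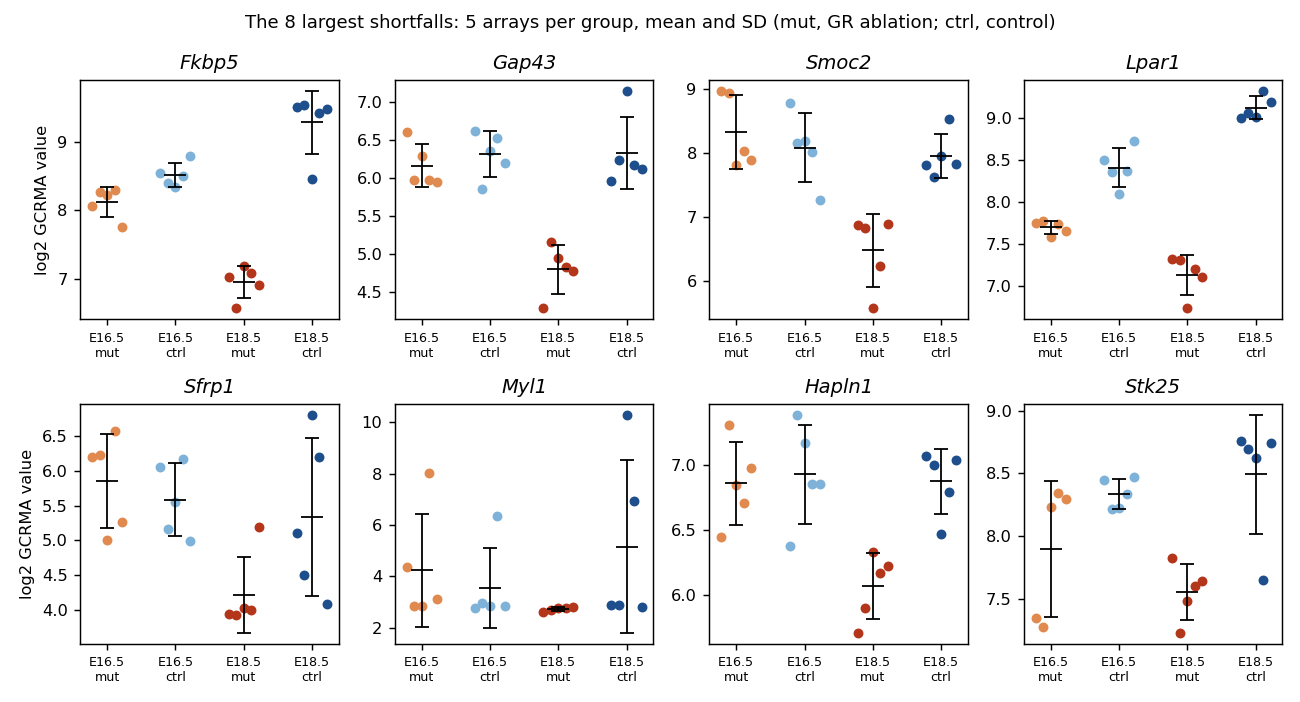
Log2 GCRMA values (y axis, a separate range for each panel) of the 8 members with the largest shortfall on each of 20 arrays, with the mean and SD of 5 arrays per group; mut is GR ablation and ctrl is control. For Fkbp5, Gap43, Smoc2, Lpar1 and Hapln1 all 5 E18.5 mutants lie below all controls, while the high Myl1 values are single arrays.

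Other probe sets of the same genes read the same RNA at other sequences. Among the members, 14 had 25 further single-gene probe sets, of which 14, from 11 genes, were above 4 in at least 5 arrays. All 14 had a shortfall above 0 and 9 had one of at least 0.5. The 5 below the limit were those of Ncam1 with 0.41 and 0.09, Igf2r with 0.46, Gpm6a with 0.34 and 1 of the Epha3 probe sets with 0.495.

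**Figure D3:**
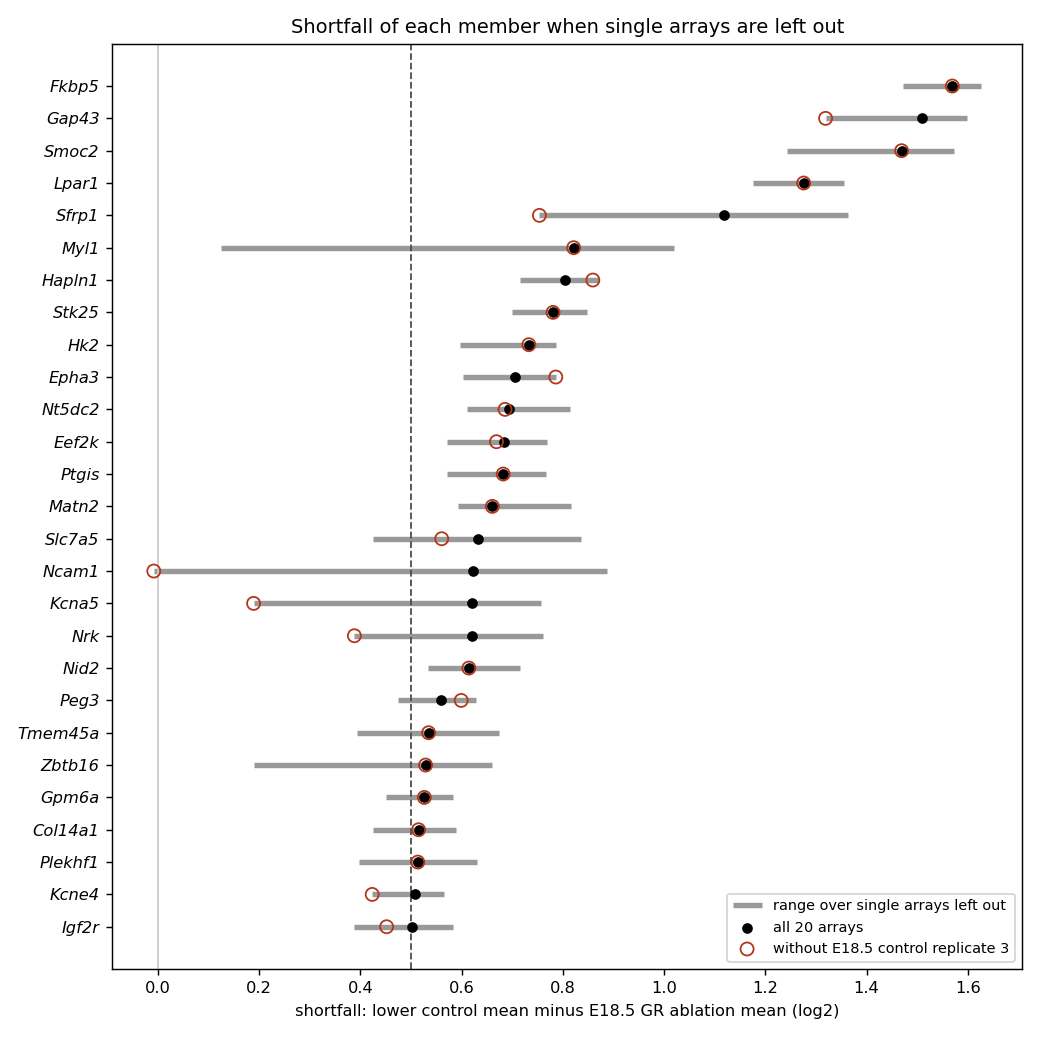
Shortfall of each member on the log2 scale (x axis) with all 20 arrays (filled circle), its range when each array was left out in turn (bar) and its value without E18.5 control replicate 3 (open circle); the dashed line is the limit of 0.5. Ncam1, Kcna5, Nrk, Kcne4 and Igf2r fall left of the line without that array, and 14 members stay right of it in all 20 settings. The 5 settings that left out an E16.5 mutant could not change the shortfall.

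The E16.5 mutants entered the choice of members only through the brightness filter and the choice of probe set, which used all 20 arrays. Myl1 passed the filter with 5 arrays above 4, of which 2 were E16.5 mutants. Zbtb16 passed it only through controls, with 1 E16.5 control and 4 E18.5 controls above 4. The E16.5 controls entered the shortfall itself. A rule that asks for a high E16.5 control mean favours lower values in E16.5 mutants relative to E16.5 controls, so the test below is not independent of the choice and the counts over members are given as a description only. Lpar1 was the only member called at E16.5. It averaged 7.70 ± 0.08 in E16.5 mutants and 8.41 ± 0.23 in E16.5 controls (SD, n = 5 each), which is -0.71 on the log2 scale with an SE of 0.11 (adjusted p = 0.005709 by limma over 8068 genes). The mutants were lower in 5 of 5 arrays than any control. Over all genes, 0.198% were called lower and 0.0496% higher at E16.5. The Lpar1 call was kept in all 22 alternative fits recorded for it, with adjusted p between 0.0008189 and 0.03059 by limma. A second Lpar1 probe set differed by -0.83.

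Col14a1 averaged 9.62 ± 0.19 in E16.5 mutants and 10.16 ± 0.25 in E16.5 controls (SD, n = 5 each), a log2 difference of -0.54 (SE 0.12) that did not pass (limma adjusted p = 0.08651). It was called without E16.5 control replicate 1 (-0.61, limma adjusted p = 0.03427) and with array weights (-0.54, limma adjusted p = 0.00946), and its adjusted p ranged from 0.00946 to 0.2662 over 22 alternatives. For Fkbp5, Lpar1, Nt5dc2 and Col14a1 all 5 E16.5 mutants were below all E16.5 controls, which held for 0.657% of all genes tested. The E16.5 mean was lower in mutants for 19 members, against 43.9% of all genes, and the median difference was -0.27 over members and 0.01 over all genes tested. By Xist and Y-linked probe sets, 5 of 5 E16.5 mutants and 1 of 5 E16.5 controls were female. At E18.5, 2 of 5 mutants and 3 of 5 controls were female. With sex as a covariate Lpar1 was still the only member called and the median over members was -0.18. Because sex nearly followed genotype at E16.5, this fit cannot fully separate sex from genotype at that stage.

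**Figure D4:**
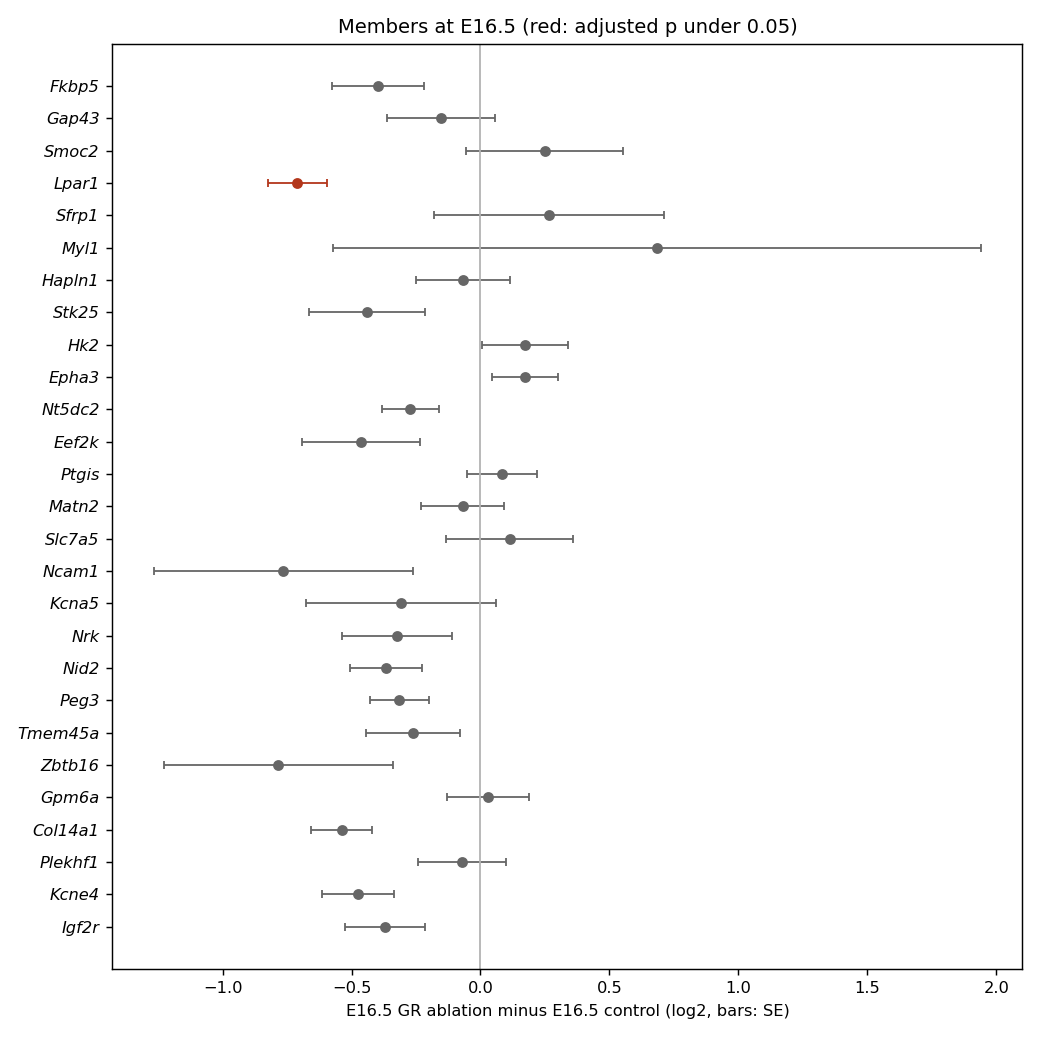
Fitted E16.5 difference, GR ablation minus control, of each member on the log2 scale (x axis) with its limma SE as bars, in order of shortfall. Lpar1, in red, is the only member called at an adjusted p under 0.05; Smoc2, Sfrp1, Myl1, Hk2, Epha3, Ptgis, Slc7a5 and Gpm6a lie right of 0.

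Summed up per array, the mean over the 27 members was 7.06 to 7.27 in E16.5 mutants, against 7.24 to 7.53 in E16.5 controls, and 6.32 to 6.59 in E18.5 mutants, against 7.40 to 8.03 in E18.5 controls. The stage position of the same arrays, which used no member, was -0.13 to 0.09 in E16.5 mutants, against -0.09 to 0.21 in E16.5 controls, and 0.45 to 0.77 in E18.5 mutants, against 0.71 to 1.09 in E18.5 controls. E18.5 mutants thus lay between the control stages on the wider set of genes and below both on the members, as the rule requires. E18.5 control replicate 3 fell within the range of the E18.5 mutants in stage position but had the highest member mean of all 20 arrays.

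**Figure D5:**
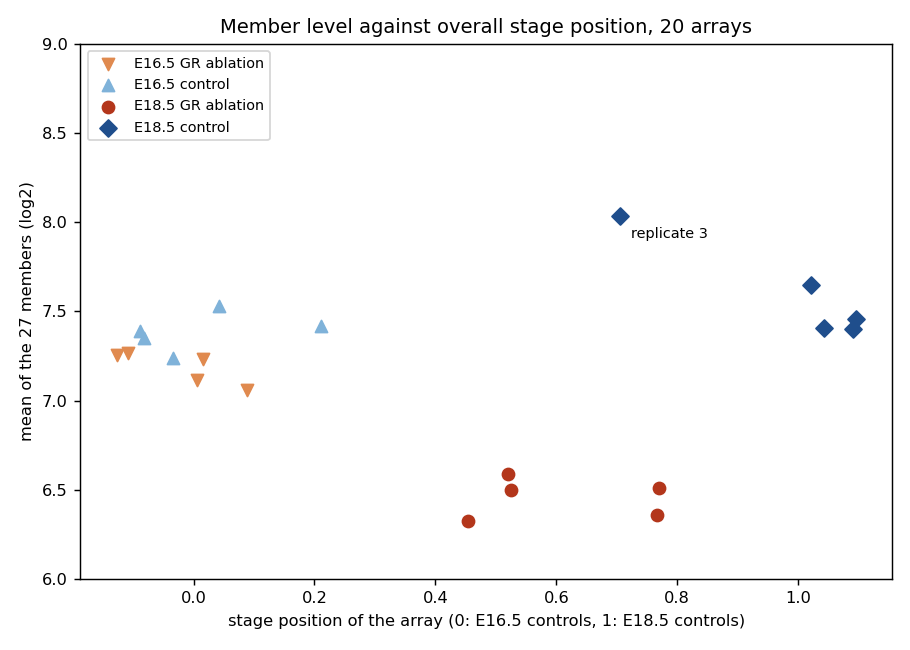
Mean log2 value of the 27 members (y axis) against the stage position of each array (x axis, 0 for the mean E16.5 control and 1 for the mean E18.5 control, computed without the members), one point per array. The 5 E18.5 mutants lie lowest, between 6.32 and 6.59, at intermediate stage positions; E18.5 control replicate 3 is labelled.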

How the data were processed

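Total RNA of 20 left lung lobes was measured, 5 animals per group, 1 per array. The deposited log2 values are GCRMA summaries, as the submitters' processing notes state. As a method, GCRMA adjusts background by probe sequence, scales arrays to each other and gives 1 value per probe set; settings are not stated. No version is given in the sources used here. Of 22690 probe sets, 20380 name 1 gene. For each of 12393 genes the probe set with the highest mean was used, and 8068 genes above a log2 value of 4 in at least 5 arrays were tested.

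Means of 4 groups were fitted with limma 3.58.1 (lmFit, eBayes; R 4.3.3), two-sided, with Benjamini-Hochberg adjustment over the 8068 genes and a threshold of 0.05. The number of arrays limits the precision. The fit was tested on simulated data with 100 genes changed by each of 2 amounts at E16.5. Of changes of -1 on the log2 scale 92% were recovered, and of changes of -0.5 only 55%, with 3.3% of calls false. A member not called at E16.5 is therefore not shown to be unchanged. Promoters and gene positions came from RefSeq (GRCm38.p6).

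The members and the 36 gene lists were chosen with earlier results of these data known; 10 lists hold a member and are reported. Every member may be named; values of every array are given for the 20 largest shortfalls, for members called at E16.5 and for the 3 members nearest the limit; other genes are named only from the lists (up to 3 each with the largest called E18.5 change) or as markers. Alternatives covered normalization, filters, probe set choice, thresholds, each array left out, the replicate number, sex, array weights and eBayes settings.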

Additional observations from a re-analysis of the deposited data

Results flagged for a closer look

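Of 108 groups of 5 arrays examined for the 27 members, 18 held an array separated from the other 4 by a wide gap relative to the group's range. For independent groups of normally distributed values the nominal rate is about 1 in 20. The groups here share arrays, and their genes were chosen by the same values. No share over all genes was computed, so nothing is read from this count. In 9 of the 18 the array was E18.5 control replicate 3. It was the highest of its group for Gap43 (7.15, the others 5.96 to 6.24), Kcna5 (6.82, the others 4.13 to 4.66), Nid2 (9.62, the others 8.89 to 8.98), Gpm6a (8.09, the others 7.23 to 7.44) and Kcne4 (4.89, the others 4.41 to 4.53). It was the lowest of its group for Fkbp5 (8.46, the others 9.43 to 9.55), Epha3 (9.04, the others 9.47 to 9.59), Peg3 (10.99, the others 11.16 to 11.22) and Zbtb16 (3.31, the others 5.93 to 6.25).

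Among E18.5 mutants, replicate 5 was the highest for Sfrp1 at 5.20, with the others at 3.93 to 4.03. Replicate 4 was the lowest for Hk2 at 7.28, with the others at 7.89 to 8.04, and for Ptgis at 5.74, with the others at 6.22 to 6.35. E18.5 control replicate 4 was the lowest for Stk25 at 7.66, with the others at 8.62 to 8.76.

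Among E16.5 mutants, replicate 4 was the lowest for Eef2k at 3.40, with the others at 4.12 to 4.16, and for Col14a1 at 9.29, with the others at 9.68 to 9.72. In E16.5 controls, replicate 4 was the highest for Myl1 at 6.34 (the others 2.76 to 2.97), replicate 1 the lowest for Matn2 at 8.03 (the others 8.78 to 8.84) and replicate 5 the highest for Zbtb16 at 4.18 (the others 2.30 to 2.84).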

How the results depend on the processing

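The number of members was 27 and ranged from 22 to 33 when each array was left out in turn. In all 20 of these settings 14 members met the limit, and the brightness filter was not applied again. The 5 settings that left out an E16.5 mutant could not change the members, because those arrays do not enter the shortfall. The number of members was 39 at a limit of 0.4, 8 at a limit of 0.75 and 5 at a limit of 1. With the mean over all probe sets of a gene it was 21, without Gpm6a, Igf2r, Ncam1, Nrk, Sfrp1 and Zbtb16. With the probe set of largest variance it was 30, which kept all 27. A filter of log2 above 5 in at least 5 arrays left 22. Quantile normalization gave 28, of which 25 were shared, and median centring 30, of which 26 were shared. The Ncam1 shortfall ranged from -0.0081, without E18.5 control replicate 3, to 0.89 over arrays left out and turned to -0.32 without E18.5 control replicates 3 and 4 together; the setting without both was chosen after the data were seen. It left 21 members, 20 of them among the 27. With group medians in place of means there were 26 members, of which 20 were shared. The number of members called lower at E16.5 was 1 and ranged from 1 to 2 over arrays left out; it was 2 without E16.5 control replicate 1, with array weights and at an adjusted p under 0.1, and the added gene was Col14a1 each time. The median E16.5 difference over members ranged from -0.30 to -0.24 over arrays left out. List genes outside the members called at E18.5 numbered 270, with a range of 233 to 298. With the replicate number as a block, 1 member was called lower at E16.5 (Lpar1) and 280 list genes at E18.5. Same-numbered arrays correlated at -0.10 to 0.60 at E16.5 and at -0.43 to 0.21 at E18.5 in their deviations from the group means. At E16.5, 3 of 5 mutants were most alike the control of their own number, and 0 of 5 at E18.5. The main fit did not pair the samples by number, and these values do not exclude a pairing at E16.5. Dim genes limit the precision: Zbtb16 and Myl1 had an E16.5 control mean below 4, and requiring both control means above 4, also chosen after the data were seen, left 25 members.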

Other observations

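Of 993 probe sets that name several genes or none and were above 4 in at least 5 arrays, 5 met the same limit. The pair that names both Dnm3os and Mir214 had shortfalls of 0.84 and 0.80, and these values are not assigned to either gene. The others carry no gene name, and 1 of them averaged 2.89 in E18.5 mutants, against 7.49 in E18.5 controls, and 2.64 in E16.5 mutants, against 3.43 in E16.5 controls.

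An E16.5 GR ablation mean at least 0.5 below both control means was found for 61 tested genes, 3 of them members.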
